A study of Homo sapiens with 8 samples.

Results

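The keratin genes KRT7, KRT8, KRT10, KRT14, KRT18, KRT19, KRT80 and KRT81 and the vimentin gene VIM, 9 genes of the 57820 in each deposited table, were followed through 8 RNA-seq libraries of A549, an established human lung adenocarcinoma cell line. They were found by gene symbol in the deposited tables: the type II keratins KRT7, KRT8, KRT80 and KRT81, the type I keratins KRT10, KRT14, KRT18 and KRT19, and the type III filament gene VIM. The libraries formed 4 groups of 2, lettered A and B. A549 cells that carried an MGA overexpression vector (MGA) were set against cells with an empty vector (Empty), and cells treated with an siRNA against MYC (siMYC) were set against cells given a negative control siRNA (siNC). All groups share the A549 background, and the labels give no dose, time or clone. MGA is a DNA-binding partner of MAX, which also pairs with MYC, and the series asks how MGA acts on MYC target genes.

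Keratins are the intermediate filament proteins of epithelial cells. A type I and a type II keratin join as an obligate heterodimer, so a filament needs both, and KRT8 with KRT18 is the pair of simple epithelia, the lung included. Vimentin forms filaments of its own and is the usual filament of mesenchymal cells, although many carcinoma lines carry it together with keratins.

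Libraries held 820428 to 2129006 expected counts in all, fewer in the vector experiment (1176890 and 917548 with MGA, 844477 and 820428 with the empty vector) than in the siRNA experiment (2129006 and 1598792 with siMYC, 1398805 and 1741730 with siNC). MGA itself took 9.54% and 9.68% of the counts in the MGA libraries, against 0.0124% and 0.00829% in the Empty libraries. MYC stood at 36.8 and 31.4 TPM in the siMYC libraries and at 152 and 130 TPM in the siNC libraries, so both targeted genes went the way of their labels. Among markers of other cells, 5 of 8 alveolar type II genes, including SFTPC, SFTPB and NKX2-1, were at 0 in all 8 libraries, as were all 3 endothelial genes with a row, PTPRC and CD3E of blood, DCN of fibroblasts and KRT5 of basal epithelium. Other markers of these lists were counted. CD68, a macrophage marker in the blood list, stood at 131 and 149 TPM in the MGA libraries against 174 and 162 TPM in the Empty libraries, and at 40.2 and 36.8 TPM in the siMYC libraries against 18.3 and 16.4 TPM in the siNC libraries. With siMYC both CD68 (log2 fold change 0.86, adjusted p = 0.0014) and the type II transporter gene ABCA3 (0.68, adjusted p = 5e-04) were called higher. LAMP3, the other type II gene tested, pointed the other way with siMYC and was not called (-1.7, adjusted p = 0.21). It stood at 0 and 1.59 TPM in the siMYC libraries and 0.82 and 2.3 TPM in the siNC libraries, against 15.2 to 20.9 TPM in the vector libraries. The part of these 3 genes in the keratin results was not tested.

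TPM, a measure of transcript abundance scaled to library size and corrected for length, so that genes can be compared, put 5 members far above the other 4. KRT7, KRT8, KRT81, KRT18 and VIM each stood between 993 and 3566 TPM in every library, whereas KRT10, KRT14, KRT19 and KRT80 stayed at or under 155 TPM. In the MGA libraries the order by TPM was KRT7 (2245 and 2291), KRT81 (2100 and 2058), KRT8 (1607 and 1632), VIM (1235 and 1221) and KRT18 (997 and 993). In the Empty libraries KRT81 led (3027 and 3240 TPM), followed by KRT7 (2222 and 2434), KRT8 (1573 and 1687), VIM (1179 and 1241) and KRT18 (1143 and 1203). The ranges of neighbours in these leading orders did not overlap, except those of VIM and KRT18 in the Empty libraries. KRT7 and KRT81 thus stood in opposite order in the MGA and Empty libraries.

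In the siMYC libraries the order was KRT81 (3566 and 3364 TPM), KRT8 (2626 and 3102), KRT7 (2423 and 2462), KRT18 (1844 and 2185) and VIM (1353 and 1235). The siNC libraries had the same order, with KRT81 at 3285 and 3350 TPM, KRT8 at 2690 and 3218, KRT7 at 2383 and 2630, KRT18 at 2129 and 2484, and VIM at 1089 and 1131. Only KRT7 and KRT18 in the siNC libraries overlapped among these neighbours. The 9 members together made up 0.827% and 0.829% of all TPM in the MGA libraries, 0.922% and 0.988% in the Empty libraries, 1.21% and 1.26% in the siMYC libraries and 1.18% and 1.3% in the siNC libraries.

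The scarcer members changed places between the experiments. In the MGA libraries KRT10 (47.7 and 40.6 TPM) stood above KRT80 (20.8 and 30.8), and KRT14 (13.0 and 14.3) and KRT19 (9.18 and 13.6) overlapped below them. In the Empty libraries KRT10 (42.4 and 22.3 TPM) overlapped KRT80 (25.7 and 26.7), with KRT19 (10.3 and 16.1) and KRT14 (1.4 and 7.26) below. In the siMYC libraries KRT19 led this set (155 and 119 TPM), above KRT80 (87.5 and 93.2) and KRT10 (40.8 and 42.1), whereas in the siNC libraries KRT80 led (70.6 and 82.7 TPM), above KRT19 (58.5 and 47.4) and KRT10 (43.1 and 43.3).

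**Figure D1:**
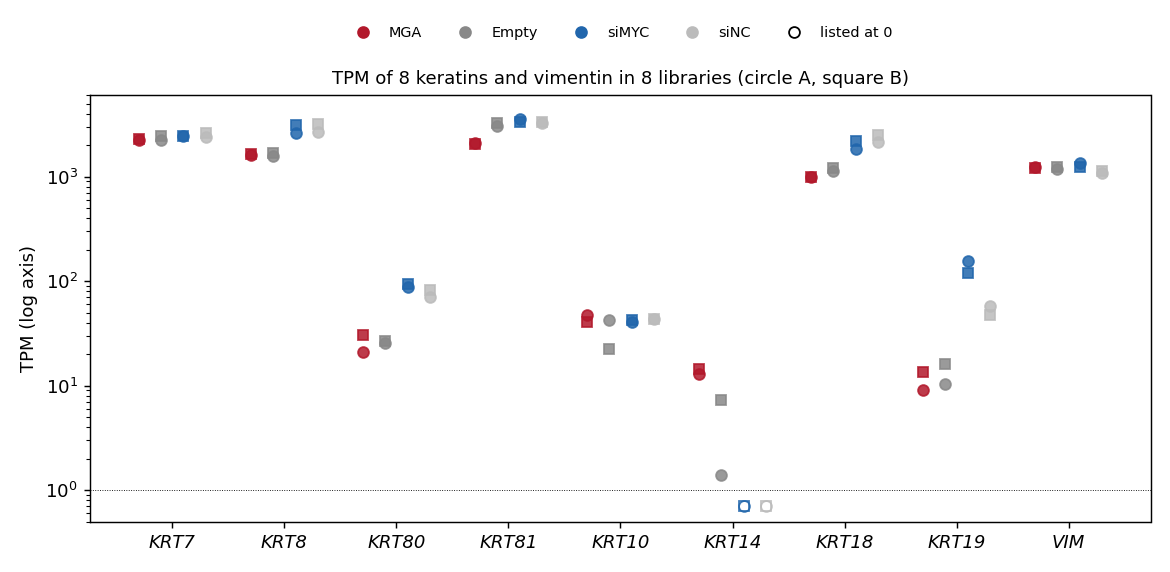
TPM of the 9 members (x axis) on a log y axis, 1 point per library, with circles for replicate A, squares for replicate B and open symbols for values listed at 0. The 5 abundant members sit between 993 and 3566 TPM, and KRT14 is listed at 0 in all 4 siRNA libraries.

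The tables hold 56 keratin genes. Of these, 30 had no count in any library, 10 averaged at least 10 counts per library and 11 passed the low-count filter. Those averaging at least 10 counts were KRT17, KRT83, KRT86 and all members but KRT14, and the pseudogene KRT121P, counted apart, did so too. All 9 members passed the filter, KRT14 through the MGA libraries alone, so for KRT14 counts are given with no test.

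With MGA overexpression KRT81 was lower, and the other abundant members, KRT7, KRT8, KRT18 and VIM, were not called, with 95% intervals of the log2 fold change that all lay within -0.48 to 0.17. In the edgeR quasi-likelihood test of the 8 members other than KRT14, 1 was called lower (KRT81), none higher and 7 were not called, at an adjusted p under 0.05. Over all 11218 genes tested 8.96% were called, 4.96% higher and 4% lower. The median log2 fold change was -0.08 over these 8 members and 0.011 over all genes. The labels do not say whether replicates A and B were grown separately, so these p-values speak of the spread among the sequenced samples alone, and that spread may be technical. When library sizes alone were used for scaling, 300 genes were called higher and 821 lower in place of 556 and 449, and the median of all genes moved to -0.116.

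KRT81 (ENSG00000205426.6) encodes a type II hair keratin, a class built into the hair shaft. Its normalised read count (TMM-scaled CPM) was 2449 and 2392 in the MGA libraries, against 3560 and 3902 in the Empty libraries. Both MGA values lay below both Empty values. The log2 fold change was -0.62 (SE 0.07, 95% interval -0.76 to -0.48, adjusted p = 5e-07), or 0.649-fold. It stayed between -0.75 and -0.56 and called in all 20 alternative settings.

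KRT81 has near-identical neighbours, KRT86 and KRT83, and RSEM shares reads that match more than 1 gene between the candidates. In the reference coding sequences (GENCODE 29 on GRCh38), KRT81 matched KRT86 at 93.3% and KRT83 at 93.1% of aligned bases, with an identical run of 605 bases shared with KRT86. The 3 windows below are shown because their letters tell these genes apart. Each is 60 coding bases read 5′ to 3′ on the gene's own strand, and capitals mark the 27 positions at which the 3 genes differ. KRT81 lies at chr12:52286386-52286445 on the minus strand, KRT86 at chr12:52308455-52308514 on the plus strand and KRT83 at chr12:52314711-52314770 on the minus strand.
KRT81: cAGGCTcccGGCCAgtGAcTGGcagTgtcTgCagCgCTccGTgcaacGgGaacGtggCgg
KRT86: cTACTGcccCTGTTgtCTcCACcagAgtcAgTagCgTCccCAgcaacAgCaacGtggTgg
KRT83: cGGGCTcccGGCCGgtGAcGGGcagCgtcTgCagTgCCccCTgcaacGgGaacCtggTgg

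In this window KRT81 differed from KRT86 at 25 positions and from KRT83 at 9. KRT81 took 94.35% to 95.74% of the counts given to KRT81, KRT83, KRT86 and KRT121P together. KRT86 had 86.7 and 77.1 CPM in the MGA libraries, against 101 and 107 CPM in the Empty libraries (log2 fold change -0.33, SE 0.18, adjusted p = 0.27). KRT83 had 20.1 and 12.9 CPM in the MGA libraries and 35.9 and 15.6 CPM in the Empty libraries (log2 fold change -0.62, SE 0.36, adjusted p = 0.32). Neither was called. KRT81 also lies inside the annotated span of KRT86 on the opposite strand, and whether counting used strand is not stated.

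KRT7 (ENSG00000135480.10), a type II keratin of ducts, glands and lung epithelium, had 2269 and 2296 CPM in the MGA libraries and 2267 and 2521 CPM in the Empty libraries. The groups overlapped, and the log2 fold change of -0.07 had a 95% interval of -0.22 to 0.09 (adjusted p = 0.65). The ratio of KRT81 to KRT7 counts, which does not depend on scaling between libraries, was 1.08 (95% exact counting interval 1.02 to 1.14) and 1.04 (0.979 to 1.11) in the MGA libraries. It was 1.57 (1.48 to 1.66) and 1.55 (1.46 to 1.64) in the Empty libraries. The intervals of the MGA libraries lay below those of the Empty libraries, and intervals of this kind cover counting error only. KRT7 also overlaps KRT86 on the same strand, and KRT7-AS and KRT87P on the opposite strand, in GENCODE 29. The part of these overlaps in the ratio was not tested.

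KRT8 (ENSG00000170421.7), the type II partner in the simple epithelial pair, had 1684 and 1701 CPM in the MGA libraries and 1671 and 1751 CPM in the Empty libraries. Its MGA values lay within the Empty range, with a log2 fold change of -0.02 (95% interval -0.20 to 0.17, adjusted p = 0.95). KRT18 (ENSG00000111057.6), its type I partner, had 891 and 874 CPM in the MGA libraries, against 1032 and 1116 CPM in the Empty libraries. Both MGA values lay below both Empty values, but the log2 fold change of -0.28 (SE 0.10, 95% interval -0.48 to -0.09) missed the threshold at an adjusted p of 0.065. The call depended on the setting: KRT18 was called lower in 10 of 20 alternatives, with an adjusted p of 8e-04 in a fit of the 4 vector libraries alone and 0.34 at the highest.

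Within a library, the ratio of KRT8 to KRT18 counts was 1.89 (95% exact counting interval 1.75 to 2.05) and 1.95 (1.78 to 2.13) in the MGA libraries. It was 1.62 (1.49 to 1.76) and 1.57 (1.44 to 1.7) in the Empty libraries. Per length, as a ratio of TPM, it was 1.61 and 1.64 with MGA, against 1.38 and 1.4 with the empty vector. Both MGA libraries exceeded both Empty libraries on either scale, although the counting intervals of MGA replicate A and Empty replicate A overlapped. With 2 libraries a group, the smallest two-sided p that exact permutation allows is 0.333, so the ratios carry no p.

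KRT8 and KRT18 have many processed pseudogenes, 50 and 68 rows in the tables. These rows held 0.859% and 2.02% of KRT8 counts with MGA and 0.62% and 0.477% with the empty vector. For KRT18 their share was at most 0.408% in any library. Summed with their pseudogenes, the TPM ratio of KRT8 to KRT18 was 1.62 and 1.68 in the MGA libraries, against 1.39 and 1.41 in the Empty libraries. KRT8 and KRT18 also overlap each other on opposite strands in GENCODE 29.

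VIM (ENSG00000026025.9) had 1390 and 1370 CPM in the MGA libraries and 1338 and 1446 CPM in the Empty libraries. The MGA values lay within the Empty range. The log2 fold change was -0.01, with a 95% interval of -0.17 to 0.15 (adjusted p = 0.95), which bounds a change at 0.888-fold to 1.11-fold. Set against the simple epithelial pair, VIM TPM was 0.474 and 0.465 of the summed KRT8 and KRT18 TPM in the MGA libraries and 0.434 and 0.43 of it in the Empty libraries.

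KRT80 (ENSG00000167767.9), a type II keratin linked to epithelial differentiation, had 52.0 and 75.9 CPM in the MGA libraries and 64.8 and 69.6 CPM in the Empty libraries (log2 fold change -0.10, 95% interval -0.52 to 0.33, adjusted p = 0.84). KRT10 (ENSG00000186395.6), the type I keratin of upper epidermal layers, had 62.0 and 52.6 CPM with MGA against 55.6 and 30.0 CPM with the empty vector (log2 fold change 0.43, 95% interval -0.06 to 0.91, adjusted p = 0.29). In both genes the groups overlapped. KRT19 (ENSG00000171345.9), a type I keratin without a tail domain, was scarce in this experiment, with 8 and 7 counts in MGA libraries and 6 and 10 counts in Empty libraries. Its log2 fold change of -0.29 had a 95% interval of -1.32 to 0.73 (adjusted p = 0.8). On the linear scale that interval runs from 0.402-fold to 1.66-fold, so changes within it were not excluded at this depth.

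KRT14 (ENSG00000186847.5), the type I keratin of basal epidermal cells, rested on few reads. MGA libraries held 14 and 12 expected counts of it, against 1.2 and 2 in Empty libraries. Both MGA values lay above both Empty values. The gene met the count minimum only in the group where it was higher, so it had to differ, and these counts are a description with no test.

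KRT14 matched KRT16 at 87.6% and KRT17 at 84.2% of aligned coding bases, with longest identical runs of 158 and 59 bases. The windows below, 60 coding bases each on the minus strand of chromosome 17 in GRCh38, show where these type I keratins can be told apart, with capitals at the 14 positions that differ among the 3. KRT14 lies at chr17:41584341-41584400, KRT16 at chr17:41611429-41611488 and KRT17 at chr17:41622439-41622498.
KRT14: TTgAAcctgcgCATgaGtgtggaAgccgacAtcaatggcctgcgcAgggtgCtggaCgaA
KRT16: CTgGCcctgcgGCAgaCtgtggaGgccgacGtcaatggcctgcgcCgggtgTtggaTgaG
KRT17: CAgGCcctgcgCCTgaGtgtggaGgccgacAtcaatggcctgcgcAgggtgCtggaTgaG

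Here KRT14 differed from KRT16 at 13 positions and from KRT17 at 8. KRT17, a keratin of hair follicles and wounded skin, had 49 and 49 counts with MGA and 42 and 52 with the empty vector (log2 fold change -0.14, SE 0.24, adjusted p = 0.8). KRT16, induced in wounded epidermis, had 11 and 6 counts with MGA and 4.8 and 2 with the empty vector, and did not pass the low-count filter. When the 3 genes were summed, the log2 fold change of the sum was 0.24 (adjusted p = 0.54), which was not called. In the siRNA libraries KRT14 and KRT17 had no counts, which allows up to 3 counts, or 1.41 and 1.88 CPM (before TMM scaling) in the siMYC libraries and 2.15 and 1.72 CPM in the siNC libraries.

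With siMYC, KRT19 was higher and KRT18 lower, while KRT7 and KRT8 were called slightly lower with calls that many settings lost. KRT14 could not be tested, and of the other 8 members 1 was called higher (KRT19), 3 lower (KRT7, KRT8 and KRT18) and 4 were not called. This response reached much of the transcriptome, since 39% of the genes tested were called, 19% higher and 20% lower. The members' 4 calls of 8 stand against that background. Their median log2 fold change was -0.15, against 0.011 over all genes.

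KRT19 had 110 and 90.2 CPM in the siMYC libraries, against 46.4 and 40.2 CPM in the siNC libraries. Both siMYC values lay above both siNC values. The log2 fold change was 1.23 (SE 0.16, 95% interval 0.90 to 1.56, adjusted p = 6e-07), or 2.34-fold. It stayed called in all 20 alternatives, between 1.06 and 1.37. These values rest on 240 and 147 counts in the siMYC libraries and 65 and 69 counts in the siNC libraries, and no gene overlaps KRT19 in GENCODE 29.

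KRT18 had 1512 and 1842 CPM in the siMYC libraries, against 1952 and 2339 CPM in the siNC libraries. Both siMYC values lay below both siNC values, by less than the difference between the siNC replicates at the closest. The log2 fold change was -0.36 (SE 0.09, 95% interval -0.54 to -0.18, adjusted p = 0.0018). The call was lost without siMYC replicate A (-0.22, adjusted p = 0.07) and on the TPM scale (-0.20, adjusted p = 0.24).

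KRT8 had 2527 and 3084 CPM in the siMYC libraries and 2920 and 3597 CPM in the siNC libraries, so the groups overlapped. Its log2 fold change of -0.22 (SE 0.09, 95% interval -0.40 to -0.04) passed narrowly, at an adjusted p of 0.047. It was lost in 12 of 20 alternatives, and the value shrank to -0.08 without siMYC replicate A and to -0.08 without siNC replicate B (adjusted p = 0.55 in both). KRT7 had 2241 and 2333 CPM in the siMYC libraries, against 2460 and 2765 CPM in the siNC libraries, without overlap. Its log2 fold change was -0.19 (SE 0.07, 95% interval -0.34 to -0.04, adjusted p = 0.037), and this call was lost in 10 of 20 alternatives, with -0.12 and an adjusted p of 0.24 without siNC replicate B.

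On the log2(TPM + 1) scale the median of all genes lay at 0.139 for this comparison. KRT8 then stood at -0.04 and KRT7 at -0.04, each -0.18 relative to that median, and KRT18 stood at -0.20, or -0.34 relative to it. Relative to the median of all genes, KRT8 lay between -0.38 and -0.08, KRT7 between -0.29 and -0.12 and KRT18 between -0.51 and -0.22 over all settings.

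The KRT8 to KRT18 count ratio was 1.67 (95% exact counting interval 1.6 to 1.75) and 1.67 (1.6 to 1.75) in the siMYC libraries, against 1.5 (1.42 to 1.57) and 1.54 (1.48 to 1.6) in the siNC libraries. Per length, as TPM, it was 1.43 and 1.42 with siMYC and 1.26 and 1.3 with siNC. Both siMYC libraries exceeded both siNC libraries, as both MGA libraries exceeded both Empty libraries. The counting intervals of both siMYC libraries met that of siNC replicate B. The KRT81 to KRT7 count ratio was 1.71 and 1.59 in the siMYC libraries and 1.61 and 1.5 in the siNC libraries, and here the groups overlapped.

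**Figure D2:**
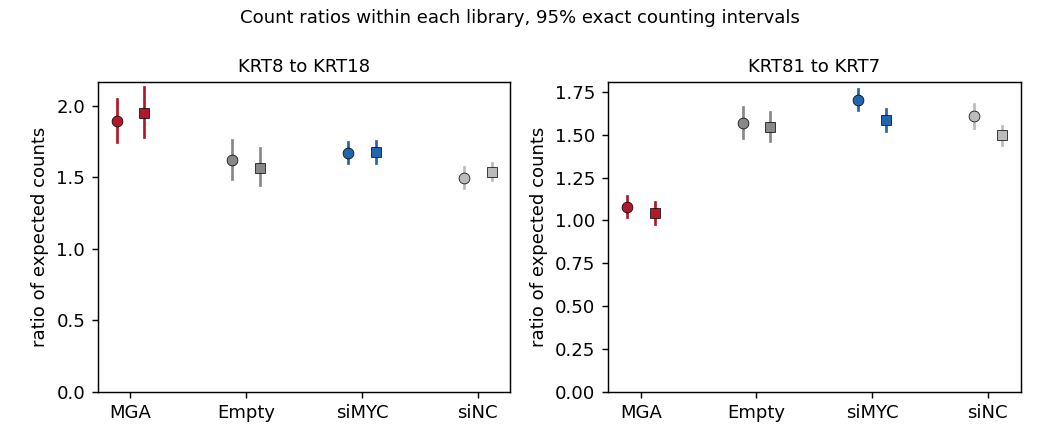
Ratios of expected counts within each library (y axes, from 0) by group (x axis), with 95% exact counting intervals as lines, circles for replicate A and squares for replicate B. KRT8 to KRT18 is higher in both MGA than in both Empty libraries and in both siMYC than in both siNC libraries, and KRT81 to KRT7 is 1.08 and 1.04 in the MGA libraries against 1.57 and 1.55 in the Empty libraries.

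KRT81 had 3821 and 3702 CPM in the siMYC libraries and 3961 and 4139 CPM in the siNC libraries. The groups did not overlap, but the log2 fold change of -0.11 (95% interval -0.24 to 0.03, adjusted p = 0.21) was not called. VIM had 1397 and 1308 CPM with siMYC and 1266 and 1341 CPM with siNC, which overlapped, and its log2 fold change of 0.05 had a 95% interval of -0.10 to 0.21 (adjusted p = 0.61). VIM TPM was 0.303 and 0.234 of the summed KRT8 and KRT18 TPM in the siMYC libraries and 0.226 and 0.198 of it in the siNC libraries.

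KRT80 had 199.5 and 218 CPM in the siMYC libraries and 181 and 216 CPM in the siNC libraries (log2 fold change 0.06, 95% interval -0.18 to 0.30, adjusted p = 0.72). KRT10 had 48.7 and 51.6 CPM in the siMYC libraries, against 57.9 and 59.5 CPM in the siNC libraries (log2 fold change -0.23, 95% interval -0.60 to 0.13, adjusted p = 0.32). The KRT80 groups overlapped and the KRT10 groups did not, and neither gene was called. In bulk RNA, fewer cells that express a keratin and less of its RNA per cell cannot be told apart.

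**Figure D3:**
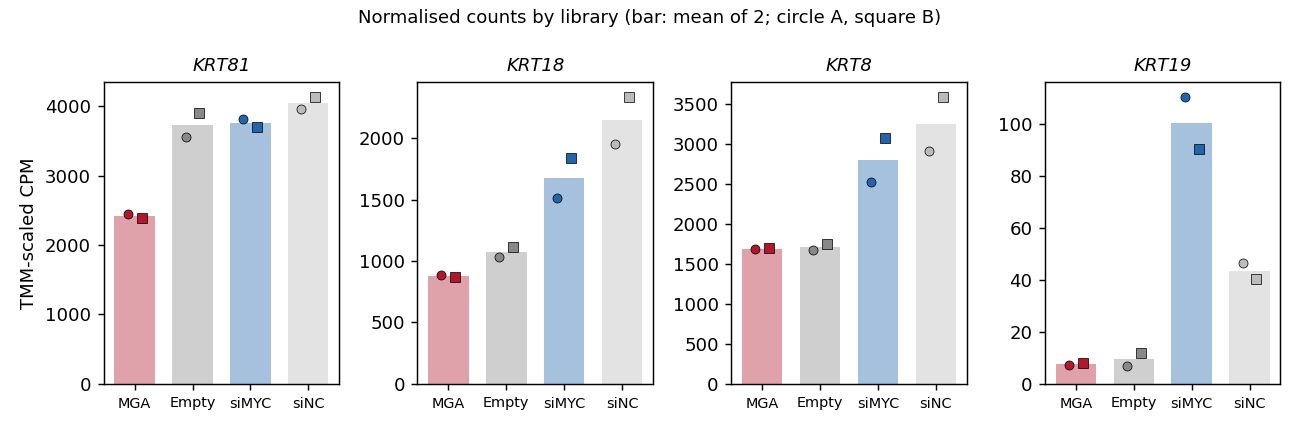
TMM-scaled CPM (y axes, from 0) of KRT81, KRT18, KRT8 and KRT19 by group (x axis), with bars for the mean of 2 libraries, circles for replicate A and squares for replicate B. KRT81 is at 2449 and 2392 CPM in the MGA libraries against 3560 and 3902 CPM in the Empty libraries, and KRT19 is at 110 and 90.2 CPM in the siMYC libraries against 46.4 and 40.2 CPM in the siNC libraries.

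The responses to MGA and to MYC knockdown were compared directly as a difference of log2 fold changes in the same fit. Of the 8 members that could be tested, 2 differed, KRT81 and KRT19, both lower under MGA relative to siMYC, where 18.5% of all genes were called, 10.3% higher and 8.22% lower. For KRT81 the difference was -0.52 (SE 0.10, 95% interval -0.71 to -0.32, adjusted p = 0.00029), and it was called in all 19 alternatives. For KRT19 it was -1.52 (SE 0.54, 95% interval -2.62 to -0.42, adjusted p = 0.047). The KRT19 call was lost in 10 of 19 alternatives, with -1.07 and an adjusted p of 0.38 without Empty replicate B.

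The other 6 members did not pass this test. The difference was 0.08 for KRT18 (95% interval -0.19 to 0.34), 0.20 for KRT8 (-0.06 to 0.46), 0.12 for KRT7 (-0.09 to 0.34) and -0.07 for VIM (-0.29 to 0.15). The KRT8 difference passed in 2 of 19 alternatives, at 0.35 without siNC replicate A (adjusted p = 0.028) and 0.35 without siMYC replicate B (adjusted p = 0.038). KRT18 was called under siMYC and not under MGA, and its 2 log2 fold changes, -0.28 with MGA and -0.36 with siMYC, were not shown to differ. KRT10 had a difference of 0.66 (0.05 to 1.26, adjusted p = 0.12) and KRT80 one of -0.16 (-0.65 to 0.33). The KRT10 value moved with the Empty library left out: it was 1.19 (adjusted p = 0.021) without Empty replicate A and 0.30 without Empty replicate B, with log2 fold changes under MGA of 0.94 and 0.05.

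**Figure D4:**
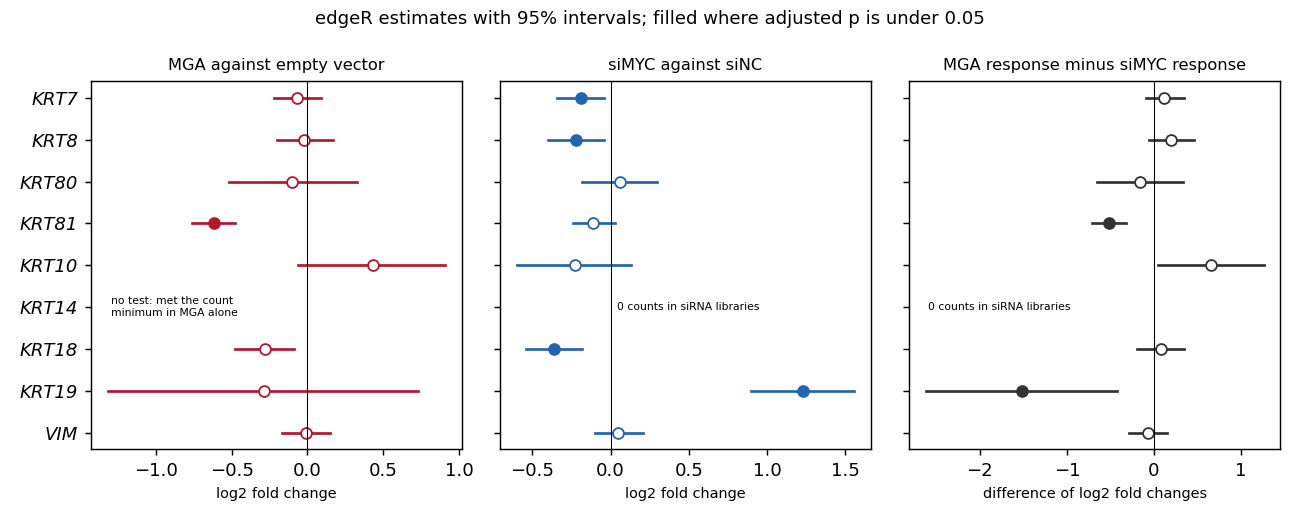
edgeR log2 fold changes of the members (rows) for MGA against Empty, for siMYC against siNC and for the difference of these responses, with 95% intervals as lines and filled points where the adjusted p is under 0.05. KRT14 has no estimate drawn, and the x axes differ in range. KRT81 is filled at -0.62 with MGA and at -0.52 in the difference, and KRT19 at 1.23 with siMYC.

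The vector and siRNA experiments also differed in their keratin levels, which is given as a description since no library links them. KRT19 had 7.30 to 12 CPM over the 4 vector libraries and 40.2 to 110 CPM over the 4 siRNA libraries. KRT80 ran from 52.0 to 75.9 CPM with vectors and from 181 to 218 CPM with siRNAs. KRT8 reached at most 1751 CPM with vectors and at least 2527 CPM with siRNAs, and KRT18 at most 1116 CPM with vectors and at least 1512 CPM with siRNAs. The ranges of KRT7, KRT81, VIM and KRT10 overlapped between the experiments. For KRT81 they did so through Empty replicate B alone, at 3902 CPM against 3702 CPM in siMYC replicate B. KRT14 and KRT17 were counted in the vector libraries alone.

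The vector and siRNA libraries form separate sets of 4, so a correlation over all 8 also reads the gap between the experiments and is given as a description. Among 6526 genes with an average log2 CPM of at least 5, those with the highest Pearson correlation of log2 CPM to KRT8 were YWHAH (0.995), SLC12A2 (0.994) and CALM2 (0.984), and its partner KRT18 ranked 6 (0.979). For KRT18 they were RBM3 (0.995), UQCRFS1 (0.992) and H2AFX (0.99). For VIM they were TAF5L (0.968), PTPRM (0.944) and NISCH (0.922).

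Genes around the filaments were counted in 5 lists. Of the 15 calls these lists gave with MGA, those of FOSL1 and JUNB held in every alternative setting, and with siMYC 11 of 27 calls did. The 27 include a call of PPL that is no test result, as given below. Beside the counts below, the shares of all genes called were 4.96% higher and 4% lower with MGA, and 19% higher and 20% lower with siMYC. Among 9 tested other intermediate filament genes, 1 rose and 1 fell with MGA, with a list median log2 fold change of -0.14. LMNA, which encodes lamins A and C of the nuclear lamina, had 744 ± 1.67 CPM in the MGA libraries and 494 ± 40.6 CPM in the Empty libraries (SD, n = 2; log2 fold change 0.59, adjusted p = 0.00031), whereas LMNB1, lamin B1, had a log2 fold change of -1.0 (adjusted p = 0.0013). With siMYC 1 rose and 2 fell, 3 of 9 where 39% of all genes were called, with a median of -0.21: SYNC, the muscle filament protein syncoilin (1.90, adjusted p = 0.00012), LMNB2, lamin B2 (-0.61, adjusted p = 1.5e-05), and LMNB1 (-0.53, adjusted p = 0.00078).

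Of 15 tested linker and desmosome genes, which tie filaments to junctions and to other fibres, 4 rose and none fell with MGA, where 4.96% of all genes were called higher, with a median of 0.14. JUP, plakoglobin of desmosomes, rose by a log2 fold change of 1.19 with MGA (adjusted p = 0.0012) and 1.16 with siMYC (adjusted p = 5.1e-09). DST, a filament linker of hemidesmosomes, rose by 0.65 with MGA (adjusted p = 0.0019) and by 0.73 with siMYC (adjusted p = 5.7e-06). DSP, desmoplakin (0.42, adjusted p = 0.03), and PLEC, plectin (0.27, adjusted p = 0.034), were the other rises with MGA, and these 2 calls were lost in 8 (DSP) and 9 (PLEC) of 20 alternatives. With siMYC 5 rose and 2 fell, 7 of 15 where 39% of all genes were called, with a median of -0.12, and the rises included MACF1, a microtubule and actin linker (0.71, adjusted p = 4.9e-05), and DSG2, a desmosomal cadherin (0.45, adjusted p = 0.00068). The 5 rises also count PPL, at 15.2 and 20.3 CPM in the siMYC libraries and 2.86 and 6.41 CPM in the siNC libraries. For PPL, siMYC was the only group with both libraries above the count minimum. Like KRT14 it had to differ, so its rise is a description and no test result. PLEC was among the falls with siMYC (-0.34, adjusted p = 0.0014), and its responses differed (0.62, adjusted p = 0.00037).

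Among 20 tested kinases, chaperones and proteases that act on filaments, none rose and 1 fell with MGA, where 8.96% of all genes were called, with a median of 0.05. That gene was PLK1, a mitotic kinase, at a log2 fold change of -0.73 (adjusted p = 0.0062). With siMYC 3 rose and 5 fell, 8 of 20 where 39% of all genes were called, with a median of 0.04, so the count was near the background. HSPB1, a small heat shock chaperone, rose by 0.76 (adjusted p = 1.4e-07), whereas PLK1 (-0.93, adjusted p = 2.7e-07), the mitotic kinase AURKB (-1.13, adjusted p = 6.4e-06) and SFN, the 14-3-3 sigma protein of epithelia (-0.74, adjusted p = 0.00018), fell.

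Among 14 tested transcription factors known to act on keratin genes, 6 rose and none fell with MGA, where 4.96% of all genes were called higher and 4% lower, with a median of 0.44. FOSL1 and JUNB, AP-1 subunits, rose by log2 fold changes of 0.88 (adjusted p = 5.7e-06) and 0.82 (adjusted p = 1.4e-05), NFKB1, an NF-kB subunit, by 0.91 (adjusted p = 4.9e-05), and KLF4, an epithelial differentiation factor, by 0.62 (adjusted p = 0.016), a call lost in 7 of 20 alternatives. With siMYC 2 rose and 2 fell, 4 of 14 where 39% of all genes were called, with a median of 0.09. JUNB rose by 1.43 (adjusted p = 2e-10) and TP63, the basal epithelial factor, by 1.94 (adjusted p = 9.7e-07), while FOSL1 (-1.19, adjusted p = 3.7e-07) and TFAP2C (-0.89, adjusted p = 0.019) fell. The TFAP2C call was lost in 6 of 20 alternatives. For FOSL1 the responses differed by 2.07 (adjusted p = 8.6e-09).

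VIM is often read together with factors and markers of the epithelial to mesenchymal transition. Of 12 tested genes of that list, 1 rose and 1 fell with MGA, where 8.96% of all genes were called, with a median of -0.10: ZEB2, a repressor of epithelial genes (0.76, adjusted p = 0.011), and TGFBI, a matrix protein induced by TGF-beta (-0.45, adjusted p = 0.0002). ZEB2 had 109 and 103 CPM in the MGA libraries, against 77.6 and 46.8 CPM in the Empty libraries, and its value ran from 0.33 to 1.18 over the alternatives, with the call lost in 5 of 20, such as without Empty replicate B (0.44, adjusted p = 0.28). With siMYC 5 rose and none fell, 5 of 12 where 39% of all genes were called, 19% higher, with a median of 0.46. FN1, fibronectin, had 1910 ± 424 CPM in the siMYC libraries and 776 ± 130 CPM in the siNC libraries (SD, n = 2), a log2 fold change of 1.30 (adjusted p = 4e-10). TGFBI (0.84, adjusted p = 3.4e-10), TGFB1, the cytokine itself (0.75, adjusted p = 7.7e-06), CDH2, N-cadherin (0.59, adjusted p = 0.00019), and ZEB2 (1.49, adjusted p = 0.00023) were the others.

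CDH1, E-cadherin, was not called in the edgeR fit, with log2 fold changes of -0.66 with MGA (adjusted p = 0.18) and -0.63 with siMYC (adjusted p = 0.074). It was called lower in 2 of 19 alternatives with MGA and 4 of 20 with siMYC. The siMYC value ran from -1.15 without siMYC replicate B to 0.73 on the log2(TPM + 0.1) scale, so its direction turned, and it was 0.04 without siNC replicate B. In TPM it stood at 6.16 and 49.95 in the siMYC libraries and 7.61 and 14.6 in the siNC libraries. ZEB1 had 0.19 with MGA and 0.20 with siMYC, and SNAI2 had 0.15 with MGA, none of them called. SNAI2 was near the counting floor in the siRNA libraries, at a mean of 1.84 CPM with siMYC and 0.714 CPM with siNC. COL1A1, counted here as a fibroblast marker, rose with siMYC by a log2 fold change of 2.23 (adjusted p = 7.6e-11), and the 6 fibroblast markers summed to 87.0 and 87.7 TPM in the siMYC libraries, against 10.9 and 20.3 TPM in the siNC libraries. COL1A1 alone made 84.85 and 87.2 TPM of that sum with siMYC, against 7.85 and 19.8 TPM with siNC. In the siRNA libraries DCN and COL1A2 were at 0, and PDGFRB, LUM and COL3A1 were at most 3.05 TPM each. The part of these markers in the list result was not tested.

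**Figure D5:**
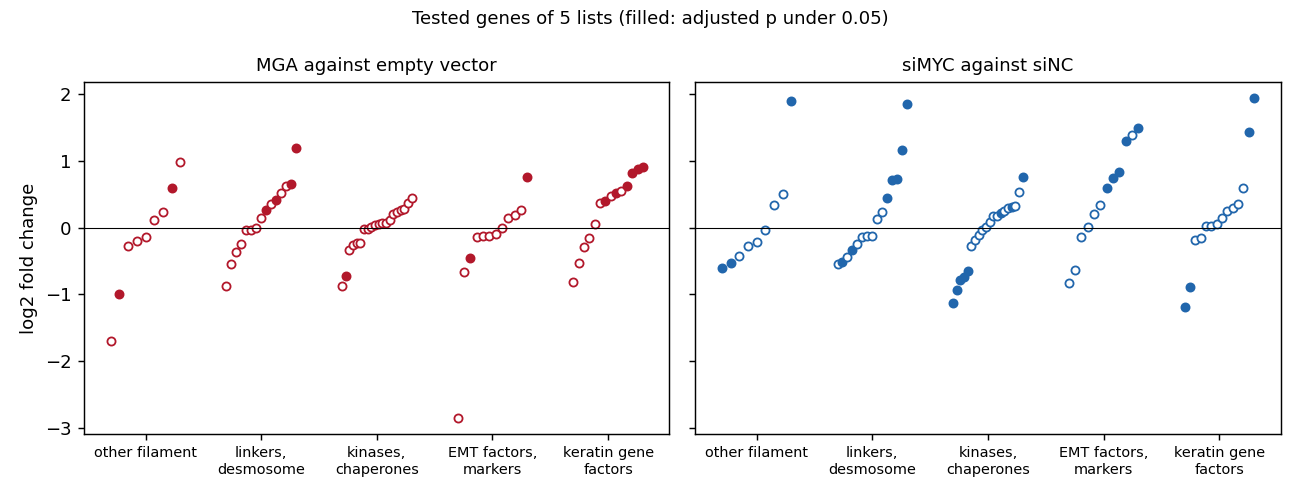
edgeR log2 fold changes (y axis) of the tested genes of 5 lists (x axis), each list sorted by value, for MGA against Empty on the left and siMYC against siNC on the right. Filled points have an adjusted p under 0.05. With MGA 6 of 14 keratin gene factors are filled above 0, where 4.96% of all genes tested were called higher. With siMYC 5 of 12 genes of the epithelial to mesenchymal list are filled above 0, where 19% of all genes tested were called higher. The lists were chosen with earlier results of these data known.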

How the data were processed

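RNA was measured by poly(A)-selected RNA-seq in 8 A549 libraries, 4 groups of 2. Per the submitters' processing notes the tools were STAR and RSEM and the build hg19. Tool versions, annotation and strand setting, not given in the sources used here, could not be checked. The authors deposited RSEM expected counts per gene, where a read matching more than 1 gene is split between them, and TPM, scaled per library and corrected for length.

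Expected counts were rounded, filtered with filterByExpr (minimum count 10, minimum total 15, leaving 11218 genes), scaled by TMM and fitted over all 4 groups with 4 residual degrees of freedom in edgeR 4.0.16 (R 4.3.3, quasi-likelihood F test, two-sided, Benjamini-Hochberg over all genes tested). Every adjusted p is from this fit unless another tool, scale, set of libraries or alternative setting is named beside it. The standard error is the log2 fold change over the square root of F. The scripts were tested on simulated data. Replicates differed by more than sampling noise and were kept apart. The chi-square per degree of freedom was 1.14 for MGA and 1.18 for Empty, against 1.79 for siMYC and 1.77 for siNC. The joint fit shares its estimate of the spread across these groups. Alternatives were other size factors, no filter, DESeq2 1.42.0, limma 3.58.1 on log2(TPM + 1) and log2(TPM + 0.1), a replicate block, the MGA gene removed, pseudogenes summed, each experiment alone and each library left out. Summing near-identical keratins was added after seeing the data. Pseudogenes were taken by symbol alone, as a member's name followed by P, with or without digits. What this added to VIM was not shown to be a pseudogene. The VIM log2 fold change with MGA was -0.012 in the main fit and 0.016 with pseudogenes summed.

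The members and lists were chosen with earlier results of these data known. All members are named, with other keratins of at least 10 counts per library on average, up to 4 called genes of smallest p per list and comparison, ZEB1, SNAI2, CDH1 and FN1. KRT16, COL1A1, CD68, ABCA3, PPL, FOXA1 and list genes given for the other comparison were named after their values were seen. Windows come from GENCODE 29 (GRCh38), not the files' build, so no count was read by coordinates.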

Additional observations from a re-analysis of the deposited data

Results flagged for a closer look

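KRT81 and KRT19 are listed because their responses to MGA and to MYC knockdown differed in a direct test of the difference. For KRT81 the response to MGA minus the response to siMYC was -0.52 on the log2 scale (edgeR, adjusted p = 0.00029), with log2 fold changes of -0.62 with MGA and -0.11 with siMYC, and it stayed between -0.69 and -0.44 and called in all 19 alternatives. For KRT19 the difference was -1.52 (adjusted p = 0.047), with log2 fold changes of -0.29 with MGA and 1.23 with siMYC. The MGA side of the KRT19 value rests on 8 and 7 counts in MGA libraries and 6 and 10 counts in Empty libraries, and its adjusted p ranged from 0.027 to 0.38 over the alternatives. Groups of 2 libraries are too small for a search for single outlying libraries.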

How the results depend on the processing

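The count of genes called with MGA was 1005, and it fell to 358 with DESeq2, 82 with limma on log2(TPM + 1) and 63 with limma on log2(TPM + 0.1). For siMYC the 4370 calls became 1971, 1245 and 1191 in the same settings, and for the difference of responses 2076 became 827, 347 and 331. Leaving out 1 library gave 402 to 1121 calls with MGA, 3299 to 4315 with siMYC and 1309 to 1937 for the difference; the lone library of a group is then assumed to vary like the others. With MGA each of the 4 vector libraries moved the count by over 1.5 times (434 without Empty A, 405 without Empty B, 402 without MGA A, 474 without MGA B). Upper-quartile scaling split the MGA calls into 387 higher and 628 lower, and for the difference 804 higher and 1188 lower replaced 1154 and 922, as did 714 and 1357 with library sizes alone and 892 and 1101 with the MGA gene removed. On log2(TPM + 1) the split was 32 higher and 50 lower with MGA, and 152 and 195 for the difference. The cause was not tested. A replicate block gave 1176, 4657 and 2292 calls; deviations of same-lettered libraries correlated at 0.006 in the vector and 0.256 in the siRNA experiment, so the letters are not shown to pair the libraries. With the block KRT18 was called lower with MGA (-0.28, adjusted p = 0.013).

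For the members, 470 alternative values of 24 results (KRT14 left out) kept their side of the threshold in 422 cases, lost it in 35, gained it in 13 and reversed a call in 0. KRT81 with MGA, KRT81 in the difference and KRT19 with siMYC held throughout. Of the calls of list genes, 2 of 15 with MGA, 11 of 27 with siMYC and 4 of 14 in the difference held in every alternative. The 27 include PPL, whose call is no test result. Left out of the 14 is FOXA1, which passed with an adjusted p that rounds to 0.05. Its call was lost in 10 of 18 alternatives. Depth limits KRT14 and KRT19 in the vector libraries, where no library had more than 14 counts of either.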
